A study of Mus musculus with 2 samples.

Results

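The genes followed here encode subunits of ionotropic glutamate receptors. Grin1, Grin2a, Grin2b, Grin2d and Grin3a encode subunits of the NMDA receptor, and Grid1 encodes a subunit of the delta receptors. These 6 genes, of 31053 mouse genes in the count tables, were taken by their symbols, with earlier results of these data known. Their levels were compared between projection neurons, GABAergic neurons and the other nuclei sorted from the olfactory bulb (OB).

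NMDA receptors are glutamate-gated channels that pass calcium and that open only when a co-agonist, glycine or D-serine, is also bound. Every NMDA receptor contains the GluN1 subunit made from Grin1. It is joined by GluN2 subunits, made from the Grin2 genes, which set how long the channel stays open and how strongly magnesium blocks it, and in some cells by GluN3 subunits such as the product of Grin3a, which lower calcium entry. The delta receptors resemble these channels in sequence but act mainly as synaptic adhesion proteins, held to presynaptic neurexins by cerebellins. In the OB, mitral and tufted cells receive glutamate from the nose, and their dendrites in turn release glutamate onto GABAergic granule and periglomerular cells, in which NMDA receptors support the GABA release that follows.

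Adult wild-type mice had received a retrogradely transported virus, retroAAV-CAG-H2B-GFP, which puts green fluorescence into nuclei from the broadly active CAG promoter. In 1 library the injection was into the anterior olfactory nucleus (AON), and in the other into several places of the posterior piriform cortex (pPCx). Green nuclei that took up the DNA dye DRAQ5 were sorted from the bulb for droplet-based single-nucleus RNA sequencing. The study's methods give 1 female C57Bl/6 mouse for the pPCx library and do not describe the AON library. Such a virus can also enter cells by local spread, so that a labelled nucleus need not belong to a neuron that projects to the injected site. With 1 library per group there was no replicate and no test, and every difference below is between these 2 libraries or between classes of nuclei within them.

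The values are counts of unique molecular identifiers (UMIs), 1 for each captured RNA molecule. After removal of barcodes with fewer than 1000 genes, 102 of 188 AON barcodes and 63 of 74 pPCx barcodes were kept, with medians of 22267 and 31581 UMIs. No barcode occurred in both libraries. A nucleus was called a projection neuron when Slc17a7, Slc17a6, Tbx21 and Cdhr1 together had more UMIs than Gad1, Gad2 and Slc32a1, and GABAergic when the reverse held with at least 3 UMIs. The AON library held 25 projection neurons, 47 GABAergic nuclei and 30 remaining nuclei, and the pPCx library held 59, 2 and 2. Levels are summed UMIs of a class per 1000000 UMIs (CPM), with exact Poisson 95% intervals, and ratios carry exact conditional binomial 95% intervals. All of these intervals cover counting error only and leave out the spread between animals.

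The labels of the classes were checked against markers that the rule had not used. A list of 6 mitral and tufted cell markers stood at a median of 2429 CPM per nucleus in AON projection neurons (range 0 to 4080) and 2628 CPM in pPCx projection neurons (range 851 to 4563), against 72.6 CPM in AON GABAergic nuclei. In 4 of the 25 AON projection neurons, however, astrocyte markers had more UMIs than mitral and tufted markers. These 4 nuclei had between 5424 and 14035 UMIs, 4 to 115 astrocyte marker UMIs (median 97) and a median of 0 mitral and tufted marker UMIs. They met the rule with 1 to 3 UMIs of its genes. The other 21 met it with 1 to 110 UMIs (median 24), so some of them also met it with very few. None of the 59 pPCx projection neurons was led by astrocyte markers. A list of 5 cortical glutamatergic markers stood at 629 CPM in AON projection neurons and 147 CPM in pPCx projection neurons, and its part in the differences between libraries was not tested. The deepest AON projection neuron, with 274993 UMIs, supplied 24.6% of the UMIs of its class. Levels of the members are therefore also given without it, and, where that changes them, without the 4 nuclei led by astrocyte markers. The lists of partner genes are given with all nuclei.

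Grin1, the subunit gene that every NMDA receptor needs, was present in both neuronal classes and nearly absent from the remaining nuclei. Its summed level was 152 CPM (130 to 177) in AON projection neurons and 158 CPM (143 to 176) in pPCx projection neurons, a ratio of 0.96 (0.80 to 1.15), so that any difference was within counting error. In single nuclei it ran from 0 through a median of 78.3 to 376 CPM in the AON projection neurons, and from 0 through 142.5 to 414 CPM in the pPCx projection neurons. The ranges overlapped almost fully. Under 10000 UMIs were found in 7 of the AON but only 2 of the pPCx projection neurons, and the part of this in the lower AON median was not tested. The 4 AON nuclei led by astrocyte markers held 0 Grin1 UMIs. Without them the AON median was 112 CPM and the summed level 158 CPM (135 to 183). AON GABAergic nuclei reached 512 CPM (474 to 553), with single nuclei from 0 through 446 to 1227 CPM. Grin1 was thus 3.37-fold (2.84 to 4.01) higher in GABAergic nuclei than in AON projection neurons, and 3.23-fold (2.84 to 3.68) higher than in pPCx projection neurons. Without the deepest nucleus the level in AON projection neurons was 164 CPM (138 to 193.5), and GABAergic nuclei were 3.13-fold (2.60 to 3.785) higher. The 30 remaining AON nuclei together held 7 Grin1 UMIs, or 14.6 CPM (5.87 to 30.1).

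**Figure D1:**
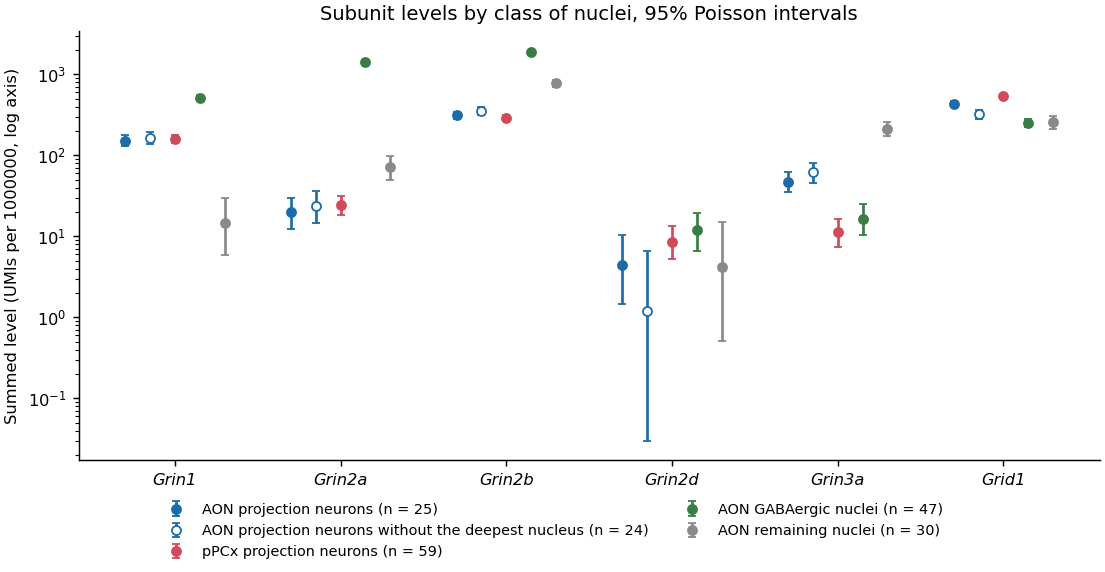
Summed level of each of the 6 genes in UMIs per 1000000 (logarithmic vertical axis) for 5 sets of nuclei, with exact Poisson 95% intervals that cover counting error only. Open circles leave out the deepest AON nucleus. Grin1, Grin2a and Grin2b sit highest in AON GABAergic nuclei, Grin3a in the remaining AON nuclei, and Grid1 in pPCx projection neurons.

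Grin2a and Grin2b encode the main GluN2 subunits of the forebrain (GluN2A and GluN2B), and both genes were higher in GABAergic nuclei than in projection neurons. Grin2a stood at 19.7 CPM (12.3 to 29.8) in AON projection neurons, from 22 UMIs, and at 24.5 CPM (18.5 to 31.7) in pPCx projection neurons, from 57 UMIs. In AON GABAergic nuclei it stood at 1415 CPM (1351 to 1482), from 1799 UMIs. It was therefore 71.9-fold (47.3 to 115) higher in GABAergic nuclei than in AON projection neurons and 57.8-fold (44.4 to 76.6) higher than in pPCx projection neurons. Without the deepest nucleus the level in AON projection neurons was 23.7 CPM (14.5 to 36.7), and GABAergic nuclei were 59.6-fold (38.5 to 97.8) higher. The median nucleus had no Grin2a UMI in either set of projection neurons, where single nuclei reached 187 and 234 CPM, while GABAergic nuclei ran from 0 through 1160 to 5050 CPM. The groups overlapped only at the low end of the GABAergic nuclei.

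The Grin2a of projection neurons, summed over each class, was set beside genes of GABAergic cells, each as a share of its level in AON GABAergic nuclei. Grin2a in AON and pPCx projection neurons was 1.39% and 1.73% of its GABAergic level. Gad1, Gad2 and Slc32a1 together stood at 2.70% and 2.89% of theirs. Of the 9 other GABAergic markers, the 3 with the highest GABAergic levels stood at 0.83% and 0.23% (Meis2), 1.05% and 1.22% (Synpr) and 0.28% and 0% (Dlx6os1). All 9 together stood at 1.14% and 1.48%, with Calb2, at 220% of its GABAergic level in pPCx projection neurons, giving 58.8 of their 81.6 CPM there. The 9 single markers ranged from 0% to 53.5% in AON and from 0% to 220% in pPCx projection neurons. Grin2a, Grin1 and Grin2b all lay within these wide ranges, which therefore do not set the 3 genes apart. The part of RNA from GABAergic cells in the Grin2a of projection neurons was not tested. Within the pPCx library its share differed between 2 sets of projection neurons described below, at 2.93% and 0.207%. In the same sets the 9 markers together stood at 1.66% and 1.26%, and Gad1, Gad2 and Slc32a1 at 3.02% and 2.71%. Grin1 stood at 29.7% and 31.0% of its GABAergic level, and Calb2 was the only single marker above it in either set. Grin2b stood at 16.6% and 15.4%. It was below Calb2 in both sets and below Dlx2 (28.4%) in AON projection neurons, and above every other single marker. Both genes were above the level of the 9 together.

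Grin2b was found in most neurons of both classes. It stood at 311 CPM (280 to 346) in AON projection neurons and 289 CPM (268 to 312) in pPCx projection neurons, a ratio of 1.08 (0.94 to 1.23). Single nuclei ran from 0 through 304 to 1007 CPM in the AON library and from 29.9 through 301 to 912.5 CPM in the pPCx library, so that the medians nearly coincided. In AON GABAergic nuclei it was 1875 CPM (1801 to 1952), which is 6.02-fold (5.38 to 6.76) above AON projection neurons and 6.49-fold (5.95 to 7.08) above pPCx projection neurons. Without the deepest AON nucleus the level in AON projection neurons was 353 CPM (314 to 395). The ratio of AON over pPCx projection neurons was then 1.22 (1.06 to 1.40), beyond counting error. GABAergic nuclei were then 5.32-fold (4.71 to 6.02) above AON projection neurons.

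After each nucleus was thinned to 3000 UMIs, so that depth could not set the shares, a Grin2b UMI was found in 56% of AON projection neurons (95% Clopper-Pearson interval 34.9 to 75.6%), 62.7% of pPCx projection neurons (49.2 to 75.0%) and 93.6% of AON GABAergic nuclei (82.5 to 98.7%). Without thinning these shares were 84%, 100% and 97.9%, at median depths of 38129, 34306 and 26129 UMIs. Grin1 gave 12% (2.55 to 31.2%), 52.5% (39.1 to 65.7%) and 72.3% (57.4 to 84.4%) after thinning, and 3.45% (0.0873 to 17.8%) in the 29 remaining AON nuclei deep enough, whose class had a median depth of 14336 UMIs. The Grin1 shares of AON and pPCx projection neurons stood apart at 3000 UMIs. At 10000 UMIs they were 77.8% (52.4 to 93.6%, 14 of 18 nuclei) and 80.7% (68.1 to 89.95%, 46 of 57). Without the nuclei led by astrocyte markers the AON share at 10000 UMIs was 93.3% (68.05 to 99.8%, 14 of 15). No order is read from these shares.

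The number of Grin2b UMIs per Grin2a UMI needs no scaling by depth and compares the same pair of genes in each class. It was 15.8 (10.3 to 25.6) in AON projection neurons, 14.85 (9.44 to 24.7) without the deepest nucleus, and 11.8 (9.0 to 15.8) in pPCx projection neurons. In AON GABAergic nuclei it was 1.33 (1.25 to 1.41), and in the 2 GABAergic nuclei of the pPCx library 1.96 (1.23 to 3.22). The ratio was thus higher in projection neurons than in GABAergic nuclei, with the limit on their Grin2a just given. Among nuclei with at least 10 UMIs of both genes together, the Grin2a part of the pair ran from 0% through a median of 0% to 35% in 15 AON projection neurons and from 0% through 8.01% to 30.8% in 34 pPCx projection neurons. In 46 AON GABAergic nuclei it ran from 0% through a median of 38.8% to 100%, and 5 of the 46 had no Grin2a UMI, so the GABAergic class was itself mixed in this share.

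**Figure D2:**
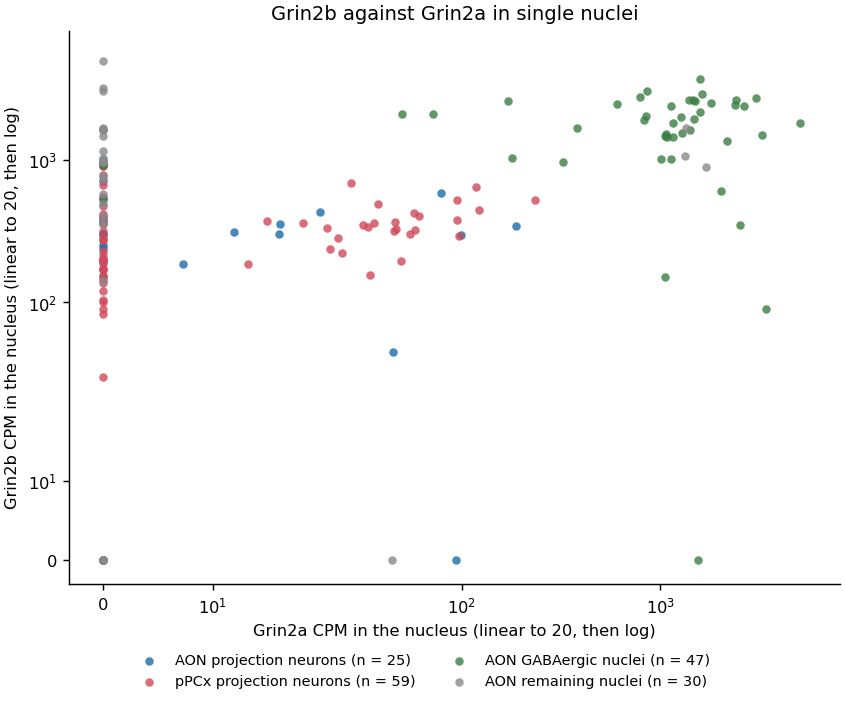
Grin2b level against Grin2a level in each nucleus, in CPM on axes that are linear to 20 and logarithmic above, coloured by class and library. Projection neurons lie toward the left edge, at 234 CPM of Grin2a or less, while most AON GABAergic nuclei lie farther to the right and higher.

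Grin2d encodes GluN2D, a subunit with slow closing that is known from interneurons and from early development. It was rare in every class, with 5 UMIs in AON projection neurons, 20 in pPCx projection neurons, 15 in AON GABAergic nuclei and 2 in the remaining nuclei. The levels of 4.47 CPM (1.45 to 10.4), 8.59 CPM (5.25 to 13.3) and 11.8 CPM (6.60 to 19.5) in the first 3 of these had overlapping intervals. Of the 5 UMIs in AON projection neurons, 4 came from the deepest nucleus, without which the level was 1.19 CPM (0.0301 to 6.61). The other UMI lay in a nucleus led by astrocyte markers. With that nucleus the ratios of AON projection neurons over pPCx projection neurons and over AON GABAergic nuclei, 0.52 (0.15 to 1.43) and 0.38 (0.11 to 1.10), had intervals that held 1. Without it, 1 UMI stood against 20 and 15, and the ratios of 0.14 (0.0033 to 0.86) and 0.10 (0.0024 to 0.65) had intervals below 1. Whether AON projection neurons differed in Grin2d thus depended on 1 nucleus.

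Grin3a encodes GluN3A, which joins GluN1 in receptors with little calcium permeability. It stood at 47.4 CPM (35.5 to 62.0) in AON projection neurons and 11.2 CPM (7.29 to 16.4) in pPCx projection neurons, a ratio of 4.25 (2.61 to 7.08). That ratio came from 2 nuclei: of 53 UMIs in the 25 AON nuclei, 37 lay in a nucleus of 10664 UMIs and 14 in a nucleus of 14035 UMIs. Both were among the 4 led by astrocyte markers, with 86 and 108 UMIs of those markers, 0 and 2 of the mitral and tufted markers and 1 UMI each of the rule genes. Without the 4 nuclei, AON projection neurons held 2 Grin3a UMIs, or 1.86 CPM (0.225 to 6.71), and the log2 ratio of AON over pPCx turned from 2.07 to -2.29. In pPCx projection neurons 10 of 59 nuclei held the 26 UMIs, with 30.8% of them in 1 nucleus. In AON GABAergic nuclei Grin3a stood at 16.5 CPM (10.2 to 25.3). With only the deepest AON nucleus left out, the level in AON projection neurons was 61.7 CPM (46.1 to 80.9).

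Grid1 encodes the delta receptor GluD1. Its summed level was higher in both sets of projection neurons than in AON GABAergic nuclei, while Grin1, Grin2a and Grin2b were lower. It stood at 429 CPM (391 to 469) in AON projection neurons, 541 CPM (511 to 571) in pPCx projection neurons and 253 CPM (226 to 283) in AON GABAergic nuclei. The deepest AON nucleus alone held 43.8% of the Grid1 UMIs of its class, and without it the level was 319 CPM (282 to 360). The log2 ratio of AON projection neurons over GABAergic nuclei was then 0.33 and no longer 0.76, and it was 0.09 when every nucleus had equal weight. That of pPCx projection neurons over AON GABAergic nuclei was 1.09 (2.13-fold, 1.89 to 2.42), a comparison that crosses the libraries. The 2 GABAergic nuclei of the pPCx library stood higher still, at a log2 ratio of -1.92 for pPCx projection neurons over them, with all 122 of their Grid1 UMIs in 1 nucleus. Single nuclei ran from 0 through 243 to 842 CPM in AON projection neurons, from 0 through 396 to 1807 CPM in pPCx projection neurons, and from 0 through 85.5 to 1686 CPM in GABAergic nuclei. The 3 ranges overlapped, and 34 of 47 GABAergic nuclei had a Grid1 UMI.

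**Figure D3:**
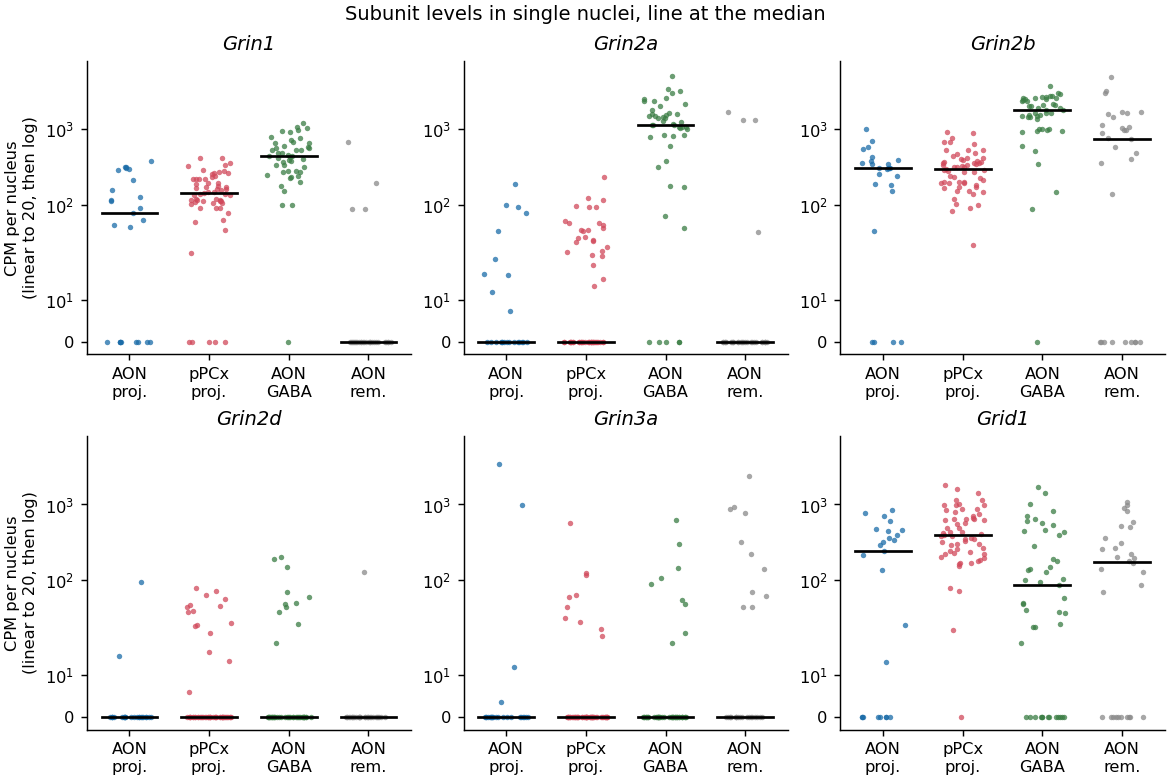
Level of each gene in single nuclei, in CPM on an axis that is linear to 20 and logarithmic above, for AON and pPCx projection neurons (proj.), AON GABAergic nuclei (GABA) and remaining AON nuclei (rem.); lines mark medians. Grin1, Grin2a and Grin2b are shifted upward in GABAergic nuclei. The median of Grin3a is 0 CPM in every class, with UMIs in 11 of 30 remaining nuclei.

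The 6 genes were set against all others by counting point ratios of 2 or more in either direction, among genes with at least 20 UMIs over both classes. Between AON and pPCx projection neurons 1 of the 6, Grin3a, was past 2-fold higher in the AON library and none lower, where 6.66% of 11172 genes were past 2-fold higher and 10.9% lower. Their median log2 ratio was -0.18, against -0.06 for all genes. With all nuclei, Grid1, at a log2 ratio of -0.33 (-0.49 to -0.18), was the only other member whose interval left out 0. Without the deepest AON nucleus it was -0.76. The ratios of Grin2b (1.22, 1.06 to 1.40) and Grin2d (0.14, 0.0033 to 0.86) then also had intervals that left out 1. The Grid1 level thus differed between the libraries by more than counting error, in a direction that held without the nucleus. No replicate shows how much 2 animals injected alike would differ.

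**Figure D4:**
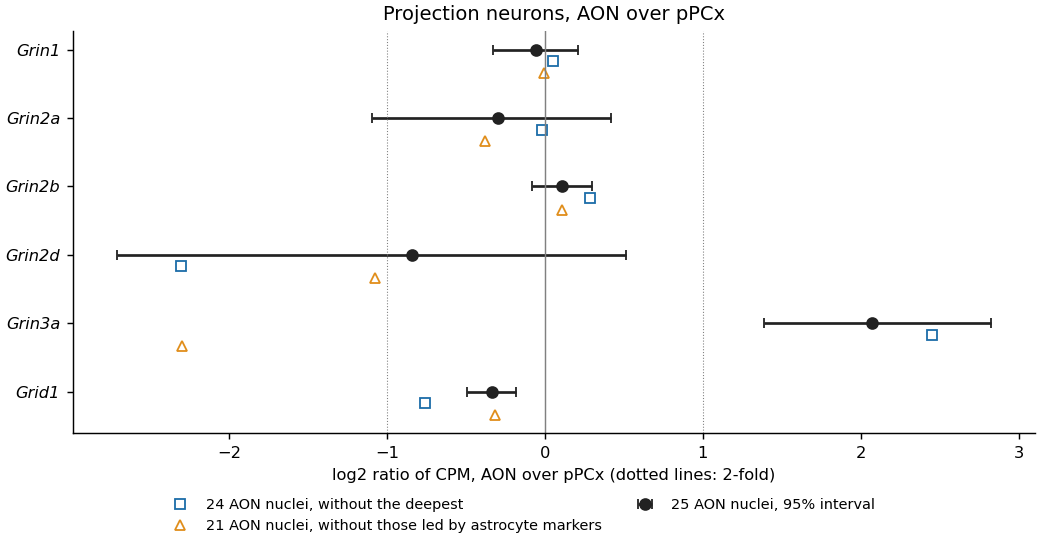
Log2 ratio of the CPM of each gene in AON over pPCx projection neurons, with 95% conditional binomial intervals for all 25 AON nuclei (black), and point values without the deepest nucleus (squares) and without the 4 nuclei led by astrocyte markers (triangles). Grin1, Grin2a and Grin2b stay nearer to 0 than Grid1 does without the deepest nucleus (-0.76), and Grin3a changes sign when the 4 nuclei are left out.

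Against AON GABAergic nuclei, 4 of the 6 were past 2-fold lower in AON projection neurons (Grin1, Grin2a, Grin2b and Grin2d) and 1 was higher (Grin3a), where 16.6% of all 9808 genes were past 2-fold lower and 15.4% higher. In pPCx projection neurons over the same GABAergic nuclei 3 were past 2-fold lower (Grin1, Grin2a and Grin2b) and 1 higher (Grid1), beside 14.1% and 18.6% of 11501 genes. The latter pair of classes came from different libraries, so that class and library cannot be told apart there. The Grin2d call rested on 20 UMIs with an interval of 0.11 to 1.10, and the Grin3a call on the 2 nuclei named above.

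The 30 remaining AON nuclei met neither rule. By marker lists, 16 were led by astrocyte markers and 8 by oligodendrocyte markers, 5 had more UMIs of the GABAergic markers beside the rule than of any glial list, and 1 had no clear lead; this division was chosen after the data were seen. Grin2b in the 16 astrocyte-led nuclei was 1122 CPM (995 to 1260), with UMIs in all 16, while Grin1 had 1 UMI there, or 3.95 CPM (0.10 to 22.01). The 8 oligodendrocyte-led nuclei had no UMI of either gene, with an upper bound of 20.9 CPM each. Median depths were 14696 and 15840 UMIs, so Grin2b differed between these glial nuclei at like depth. AON GABAergic nuclei had 2384 Grin2b UMIs with 651 of Grin1, against 284 with 1 in the astrocyte-led nuclei. GABAergic markers still stood at 750.5 CPM in the astrocyte-led nuclei (6 to 21 UMIs each) and 662 CPM in the oligodendrocyte-led nuclei, where 109 of the 117 UMIs were in 1 nucleus, and their part in these levels was not tested. Grin3a was concentrated in the astrocyte-led nuclei, at 367 CPM (296.5 to 450) from 93 UMIs in 8 of 16, against 17.0 CPM (3.50 to 49.6) in the oligodendrocyte-led nuclei. Grid1 stood at 375 CPM (304 to 459) in the astrocyte-led and 39.6 CPM (15.9 to 81.65) in the oligodendrocyte-led nuclei. Grin2a had no UMI in the former and 1 in the latter. The 5 nuclei with more GABAergic markers held 33 Grin2a UMIs (732.5 CPM, 504 to 1029), 73 of Grin2b, 6 of Grin1, 19 of Grid1 and 5 of Grin3a.

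Set against the 30 remaining nuclei as a whole, AON projection neurons were past 2-fold higher in 1 of 5 members with enough UMIs (Grin1, 10.4-fold, 4.95 to 26.3) and lower in 3 (Grin2a, Grin2b and Grin3a), where 19.2% and 23.1% of 8579 genes were past 2-fold higher and lower. The pPCx projection neurons were higher in 3 of 6 (Grin1, Grin2d and Grid1, of which Grin2d had 20 against 2 UMIs and an interval of 0.50 to 18.2) and lower in the same 3, beside 22.9% and 20.5% of 10847 genes. Grin3a was 4.44-fold (3.15 to 6.31) higher in the remaining nuclei than in AON projection neurons and 18.9-fold (12.2 to 30.2) higher than in pPCx projection neurons. Scaling by median ratios in place of total UMIs moved log2 ratios upward by 0.46 for AON and 0.53 for pPCx projection neurons here, and by 0.16 for pPCx projection neurons over AON GABAergic nuclei. It left Grin2b at -0.86 and -0.90, short of 2-fold, and took Grid1 in AON projection neurons from 0.75 to 1.21. Without the 4 nuclei led by astrocyte markers, Grin3a in AON projection neurons over remaining nuclei was at -6.51.

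The projection neurons of the pPCx library fell into 2 separate sets by the summed level of Ebf1, a transcription factor gene, and Cntn6, which encodes a contactin. The 22 nuclei with low levels lay between 0 and 100 CPM, and the 37 with high levels between 1433 and 7892 CPM, so that no nucleus was near the limit of 1000 CPM. Mitral and tufted markers were at medians of 2433 and 2683 CPM in the low and high sets. The limit was chosen with earlier results of these data known.

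Of the 6 members, Grin2a had the largest ratio between these sets. It stood at 41.4 CPM (31.1 to 54.0) in the high set, with UMIs in 24 of 37 nuclei, and at 2.93 CPM (0.604 to 8.55) in the low set, with 3 UMIs in 3 of 22 nuclei, a ratio of 14.2 (4.59 to 70.8). The GABAergic markers beside the rule stood at 91.3 CPM (75.6 to 109) and 69.3 CPM (54.1 to 87.4), and Gad1, Gad2 and Slc32a1 together at 26.1 CPM (18.1 to 36.5) and 23.4 CPM (15.0 to 34.8). As a share of the level in AON GABAergic nuclei, Grin2a was 2.93% in the high and 0.207% in the low set, the markers beside the rule 1.66% and 1.26%, and Gad1, Gad2 and Slc32a1 3.02% and 2.71%. The part of RNA from GABAergic cells in the Grin2a of either set was not tested. Grin2b was also higher in the high set, at 370 CPM (337 to 404) against 186 CPM (161 to 215), a ratio of 1.98 (1.67 to 2.36), and its number of UMIs per Grin2a UMI was 8.93 (6.73 to 12.1) against 63.7 (21.5 to 311.5). Grin1 was nearly level at 146 CPM (126 to 168) and 175 CPM (150 to 202), a ratio of 0.83 (0.68 to 1.03).

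Grid1 went the other way. It stood at 321 CPM (291 to 353) in the high set and 821 CPM (766 to 878) in the low set, where it was 2.56-fold (2.27 to 2.88) higher. Its single-nucleus values ran from 0 through 263 to 1412 CPM in the high set and from 304 through 814 to 1807 CPM in the low set, so that every low nucleus stood above the median of the high set. Grin2c, the GluN2C gene, had 58 UMIs in the low set and 2 in the high set, a 36.9-fold difference (9.76 to 312). Grin3a had 24 UMIs in the high and 2 in the low set (ratio 9.43, 2.34 to 82.4), with 33.3% of the 24 in 1 nucleus.

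**Figure D5:**
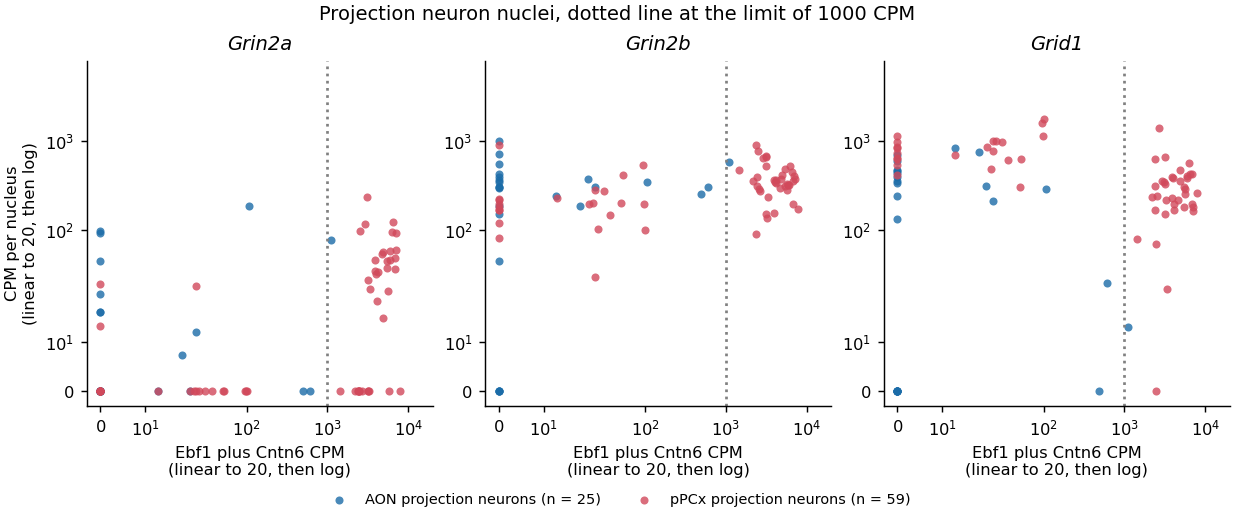
Levels of Grin2a, Grin2b and Grid1 in single projection neuron nuclei of both libraries against the summed level of Ebf1 and Cntn6, in CPM on axes that are linear to 20 and logarithmic above; the dotted line marks the limit of 1000 CPM. In the pPCx library the 2 sets are separated by an empty interval from 100 to 1433 CPM, with Grin2a almost absent to its left and Grid1 higher there; 1 AON nucleus lies to the right of the limit.

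Of the 6 members 3 were past 2-fold higher in the high set (Grin2a, Grin2d and Grin3a) and 1 was lower (Grid1), beside 10.9% and 5.61% of 9686 genes past 2-fold higher and lower. Grin2d reached its call with 15 and 5 UMIs and an interval of 0.81 to 8.30. Astrocyte markers also differed between the sets, at 309 CPM in the high and 101 CPM in the low set, although Gfap and Agt were at 0 in both; the part of this in the differences was not tested.

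In the AON library 1 projection neuron was above the limit, at 1096 CPM, and 2 others lay at 491 and 608 CPM, while the other 22 had at most 107 CPM. These 3 nuclei had 76634, 54982 and 39459 UMIs, and they held 1, 0 and 1 Grid1 UMIs, 45, 14 and 12 Grin2b UMIs, and 6, 0 and 0 Grin2a UMIs. Their Grid1 thus lay at the low end of the range of the high set of the pPCx library, at depths above that set's median of 31440 UMIs.

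Since the AON projection neurons were nearly all low in Ebf1 and Cntn6, they were also compared with the 22 low nuclei of the pPCx library alone, a comparison added after the data were seen. Grid1 was then 459 CPM (419 to 502) in 24 AON nuclei against 821 CPM in the pPCx nuclei, a log2 ratio of -0.84 (-1.002 to -0.67) that was -1.23 without the deepest AON nucleus. Grin2b was higher in the AON nuclei, at 291 CPM (259 to 326) against 186 CPM, a ratio of 1.56 (1.30 to 1.88). Grin1 was level, at a ratio of 0.90 (0.73 to 1.12). Grin2a had 16 UMIs in the AON nuclei and 3 in the pPCx nuclei, too few for the count of ratios past 2-fold. Of 4 members with enough UMIs 1 was past 2-fold higher (Grin3a, through the 2 nuclei named above) and none lower, beside 8% and 6.18% of 8963 genes. Without the astrocyte-led nuclei Grin3a had 2 UMIs in either library and no member was past 2-fold. Without the deepest nucleus Grid1 was the second past it.

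Of the other NMDA receptor genes, Grin2c, the GluN2C gene, was 44.7 CPM (33.2 to 59.0), 25.8 CPM (19.7 to 33.2) and 11.0 CPM (6.02 to 18.5) in AON projection neurons, pPCx projection neurons and AON GABAergic nuclei, and 257 CPM (198 to 327) in the 16 astrocyte-led nuclei of the AON library. Grin2c in AON projection neurons fell to 32.05 CPM (21.1 to 46.6) when the nucleus of 274993 UMIs was left out. That interval overlapped the one of pPCx projection neurons. This single nucleus supplied 46% of the Grin2c UMIs in its class. Grin3b, the other GluN3 gene, had no UMI in either set of projection neurons, with upper bounds of 3.30 and 1.58 CPM.

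The proteins that work with these receptors were described from lists chosen with earlier results of these data known. Postsynaptic scaffolds tie the receptors to the membrane. Of 11, none was past 2-fold between AON and pPCx projection neurons in either direction, beside 6.66% of all genes higher and 10.9% lower, with a median log2 ratio of -0.07 against -0.06 for all genes; the farthest were Homer1 (0.57) and Shank1 (0.35) upward and Dlgap2 (-0.75) and Dlg3 (-0.66) downward. Against AON GABAergic nuclei 7 of 11 were lower in AON projection neurons and 6 of 11 in pPCx projection neurons, beside 16.6% and 14.1% of all genes, and none was higher. The median log2 ratios of the list were -1.64 and -1.35, against -0.06 and 0.04 for all genes. Shank2 was 10.7-fold (7.32 to 16.2) and Dlgap2 8.26-fold (7.34 to 9.33) higher in GABAergic nuclei than in AON projection neurons, and Homer1 was 11.2-fold (9.07 to 13.9) and Shank2 8.40-fold (6.55 to 10.9) higher than in pPCx projection neurons. The scaffolds past 2-fold thus lay on the same side as Grin1, Grin2a and Grin2b between these classes.

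Among 12 kinases and enzymes downstream of NMDA receptor calcium entry, 2 were past 2-fold higher in AON than in pPCx projection neurons and 3 were lower, beside 6.66% and 10.9% of all genes. Nos1, the neuronal nitric oxide synthase, was 5.73-fold (2.88 to 12.2) and Kalrn, a dendritic spine exchange factor, 4.07-fold (3.14 to 5.31) higher, while Camk2a, a subunit of the calcium and calmodulin dependent kinase, was 12.99-fold lower (7.65 to 23.99) and Ptk2b 6.94-fold lower (3.77 to 14.2). Against AON GABAergic nuclei 7 of 12 were lower in AON projection neurons, led by Camk2a (31.2-fold, 18.4 to 57.5) and Ptk2b (20.5-fold, 11.2 to 41.5), and 8 of 12 in pPCx projection neurons, led by Kalrn (37.0-fold, 29.9 to 46.2) and Camk4 (7.35-fold, 5.79 to 9.42), beside the same 16.6% and 14.1%. None of the list was past 2-fold higher in projection neurons in either comparison. In the pPCx library Camk2a was 3.73-fold (2.85 to 4.94) higher in the high than in the low set of Ebf1 and Cntn6, and it was the 1 of 11 genes of the list with enough UMIs past 2-fold, beside 10.9% of all genes.

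The co-agonists of the NMDA receptor come from glycine transport and from serine racemase, the product of Srr. Of 6 such genes 3 had enough UMIs between AON and pPCx projection neurons, and 1, Slc1a4, was past 2-fold lower (10.9% of all genes), with 4 against 17 UMIs and an interval of 0.12 to 1.503. Srr stood at 49.2 and 74.3 CPM, a ratio of 0.66 (0.48 to 0.90). In the remaining AON nuclei the glial amino acid transporter genes were higher than in AON projection neurons, Slc7a10 by 23.8-fold (9.54 to 76.3), Slc1a4 by 18.6-fold (6.61 to 72.5) and Slc6a9 by 10.8-fold (4.94 to 26.8). Against AON GABAergic nuclei Srr was the 1 gene of the list with enough UMIs in AON projection neurons, and its ratio was 0.61 (0.43 to 0.85). In pPCx projection neurons Slc6a9 (2.51-fold, 0.93 to 8.46) and Slc1a4 (2.32-fold, 0.76 to 9.48) were past 2-fold higher than in GABAergic nuclei, from 28 UMIs or fewer and beside 18.6% of all genes.

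The cerebellins and neurexins bind delta receptors across the synapse. Of 7 genes 6 had enough UMIs between AON and pPCx projection neurons, and 1, Cbln2, was past 2-fold lower in the AON library, with 2 against 29 UMIs (6.96-fold, 1.76 to 60.2), beside 10.9% of all genes. Against AON GABAergic nuclei Cbln4 was higher in both sets of projection neurons, with 21 and 40 UMIs against 1 in the GABAergic nuclei (23.9-fold, 3.84 to 988, and 21.8-fold, 3.70 to 884). Nrxn3 was 5.27-fold (5.09 to 5.46) and 4.73-fold (4.62 to 4.85) higher in GABAergic nuclei than in AON and pPCx projection neurons, and Nrxn2 2.54-fold (2.16 to 3.00) higher than in the latter. Between the sets of the pPCx library Cbln4 was higher in the high set (2.07-fold, 1.005 to 4.60) and Cbln2 in the low set (2.83-fold, 1.23 to 7.05), each from 40 UMIs or fewer.

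The same lists were read against the remaining AON nuclei, where 19.2% of all genes were past 2-fold higher and 23.1% lower in AON projection neurons and 22.9% and 20.5% in pPCx projection neurons, and between the low sets of both libraries. AON projection neurons were past 2-fold higher in 4 and lower in 3 of 10 scaffolds, with Dlg2 3.42-fold (3.13 to 3.74) higher and Shank3 at 48 against 0 UMIs, and with Dlg1 4.58-fold (3.68 to 5.73) and Shank2 3.53-fold (2.16 to 5.86) lower. Of 11 downstream enzymes 3 were higher, Camk2b by 10.4-fold (4.65 to 28.7) and Rasgrf1 by 7.36-fold (5.06 to 11.1) the most, and 2 were lower, Camk2a by 6.49-fold (3.45 to 12.9) and Camk2g by 3.27-fold (2.38 to 4.53). For pPCx projection neurons the counts were 5 and 3 of 11 scaffolds and 5 and 3 of 11 enzymes, and Camk2b, at 10.6-fold (4.80 to 29.1), was again the farthest upward of the enzymes. The shares lower, 3 of 10 or 11 scaffolds and 2 or 3 of 11 enzymes, were near those of all genes. Between the sets of the pPCx library Shank2 (5.94-fold, 2.95 to 13.5) and Dlgap2 (2.15-fold, 1.88 to 2.47) were higher in the high set and Dlg2 was 3.27-fold (3.12 to 3.44) higher in the low set, the only 3 of 11 scaffolds past 2-fold, beside 10.9% of all genes higher and 5.61% lower. Between low nuclei, where 8% of all genes were past 2-fold higher and 6.18% lower, Shank2 (2.73-fold, 1.24 to 6.66) and Kalrn (2.79-fold, 2.02 to 3.89) were higher in the AON library, while Camk2a (6.09-fold, 3.19 to 12.8), Ptk2b (5.63-fold, 2.94 to 11.9) and Cbln2 (10.2-fold, 2.47 to 89.6, from 2 against 20 UMIs) were lower.

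To find the genes most like each member, levels as log2(UMIs + 1) were correlated over 144 nuclei of both libraries, each thinned to 10000 UMIs, against 5770 genes found in at least 20% of them. The nuclei share 2 libraries and a few classes, so these values describe how genes follow the classes. Grin1 was most like Cacna1c (Pearson r = 0.71), Rbfox3 (0.69) and Ppfia2 (0.69), and Grin2a was most like Kcnq5 (0.83), Rbfox3 (0.78) and Gad1 (0.75). Grin2b was most like Meis2 (0.73), Kalrn (0.69) and Rbfox3 (0.66). The other 3 members had weaker partners, Nhsl1 (0.56), Sat1 (0.55) and Chl1 (0.54) for Grin3a, Sh3rf3 (0.47), Egfem1 (0.46) and Nell1 (0.45) for Grid1, and Grip1os2 (0.40), Calb2 (0.40) and Spon1 (0.37) for Grin2d, which had UMIs in only 10 of the nuclei. Within the 57 pPCx projection neurons among them, which pool the high and low sets, the correlation was 0.30 between Grin2a and Grin2b and -0.31 between Grin2b and Grid1, and within the 43 AON GABAergic nuclei the highest among the members was 0.39, between Grin1 and Grin2b.

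In the GENCODE M21 annotation of GRCm38, Grin1 (ENSMUSG00000026959) lies on chromosome 2 at 25291181 to 25319187, Grin2a (ENSMUSG00000059003) on chromosome 16 at 9567898 to 9995560 and Grin2b (ENSMUSG00000030209) on chromosome 6 at 135713233 to 136173511, all on the minus strand. Grin2d (ENSMUSG00000002771) lies on chromosome 7 at 45831883 to 45878378 and Grin3a (ENSMUSG00000039579) on chromosome 4 at 49661611 to 49845744, both on the minus strand, and Grid1 (ENSMUSG00000041078) lies on chromosome 14 at 34820108 to 35583379 on the plus strand. The genes span from 28.0 kb (Grin1) to 763 kb (Grid1), and nuclear RNA rich in introns can give longer genes more UMIs, so levels of different members are not compared. Grin1, Grin2b and Grin2d overlap genes on the other strand (Grin1os, Gm14329 and Gm14330, and Kdelr1), the largest of which against its member was Kdelr1, with 15 UMIs beside 5 of Grin2d in AON projection neurons. Grin2a and Grid1 overlap no other counted gene.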

How the data were processed

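Single-nucleus RNA was measured in 2 libraries, 1 per injection site. The deposited counts are raw UMIs per gene and barcode, made by the authors with Cell Ranger (3.1.0 in the matrix header) and filtered to barcodes before deposit. The genome builds in the submitters' processing notes, GRCh38 and hg19, are human, and the mouse build, annotation and treatment of intronic reads are not given in the sources used here. Of the mouse gene identifiers, 30934 (99.6%) were found in GENCODE M21.

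A barcode needed 1000 genes and no more than 5% of UMIs from mitochondrial genes (Python 3.11.15, numpy 2.4.6, scipy 1.17.1, pandas 2.3.3). No doublet caller was run on so few nuclei. UMIs were summed per library and class and scaled to CPM, and log2 ratios used 0.5 UMI added to each sum. Nuclei of a library are not replicates, so no p-value was computed, and the depth of the sums (479744 to 2328340 UMIs) sets the counting error. Past 2-fold means a point ratio of at least 2 or at most 0.5 with 20 or more UMIs over both sums. In the partner lists the 2 largest ratios in each direction are named. The code was tested on simulated counts. The members, lists and limits were chosen with earlier results of these data known. Samples were grouped by the injection labels. Alternatives covered the deepest nucleus, weights, filters, class rule, pseudocount and scaling, and 4 items were added after the data were seen. No sequence is shown, since no reading of these counts turns on one. A related gene of the lists is not reported here.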

Additional observations from a re-analysis of the deposited data

Results flagged for a closer look

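Barcodes below the filter of 1000 genes entered no comparison. In the AON library 86 of them, with a median of 775 UMIs, held 109 UMIs of the 6 genes in 28 barcodes, or 1151 CPM (945 to 1389) against 2408 CPM in the nuclei kept. Of these 74 were Grid1 UMIs (782 CPM, 614 to 981), 17 Grin1, 13 Grin2b, 4 Grin2a and 1 Grin3a. In the pPCx library 11 such barcodes held 9 UMIs, 5 of Grin2b and 4 of Grid1, or 842.5 CPM (385 to 1599) against 1118 CPM in the nuclei kept.

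Grin3a and Grid1 had opposite signs in the libraries when projection neurons were set against GABAergic nuclei. The log2 ratio of Grin3a was 1.501 for AON nuclei and -4.31 for pPCx nuclei, and that of Grid1 was 0.76 and -1.92. The difference was not tested. The pPCx library had only 2 GABAergic nuclei, and 1 of them, with 48847 UMIs, held all 122 Grid1 UMIs and all 13 Grin3a UMIs. That nucleus had 20 UMIs of Gad1, Gad2 and Slc32a1, none of the excitatory rule genes and 1802 CPM of Ebf1 and Cntn6, while the other, with 10816 UMIs, had neither Grid1 nor Grin3a.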

How the results depend on the processing

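No paired analysis was possible because each injection site had 1 library. The depth limits Grin2d, Grin2a and Grin3a in projection neurons most, and no alternative replaces the missing second animal. Of 601 alternative values over 77 results, 514 stayed within the counting interval or within 1.5 times the count. Another 82 moved beyond it, and 5 were counted as turned. Some ratios near 0 changed sign without being counted as turned. Grin1 in AON over pPCx projection neurons went from -0.057 to 0.051 without the deepest nucleus. For AON over pPCx projection neurons, the log2 ratio of Grid1 was -0.76 without the deepest AON nucleus, -0.71 without nuclei over 3 times the median depth and -0.96 with equal weights, and equal weights gave -0.44 for Grin1, -0.09 for Grin2b and 3.28 for Grin3a. Grin3a turned to -2.24 under the stricter class rule and to -2.29 without nuclei led by astrocyte markers. The count of members past 2-fold was 2 and not 1, Grin2d being the second, under all of these settings and under scaling by median ratios. Over AON GABAergic nuclei, Grin2b was -2.41 and Grid1 0.33 both without the deepest nucleus and without those over 3 times the median, equal weights gave -2.04 for Grin1, 2.57 for Grin3a and 0.092 for Grid1, and Grin3a turned to -2.84 under the stricter rule and -2.87 without the astrocyte-led nuclei. Grin2d in pPCx projection neurons over remaining nuclei turned to -0.44 with 5 UMIs added. For high over low Ebf1 and Cntn6 a minimum of 50 UMIs left 2 members past 2-fold. Among low nuclei the AON over pPCx count went from 1 to 2 without the deepest or the over-median nuclei, with equal weights, with no filter or with a limit of 2000 CPM, and to 0 under the stricter rule or without the astrocyte-led nuclei. Grin2b per Grin2a UMI in the remaining AON nuclei was 6.51 with equal weights and 16.9 in nuclei of 10000 or more UMIs. The share of nuclei with a Grin2b UMI was 84% unthinned and 88.9% at 10000 UMIs in AON projection neurons, 100% and 87.7% in pPCx projection neurons, and 100% at 10000 UMIs in AON GABAergic nuclei.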
